A study of Mus musculus with 6 samples.

Results

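The genes described here are 10 regulators of epithelial gene expression: the splicing factors Esrp1, Esrp2 and Rbm47, the grainyhead-like factors Grhl1, Grhl2 and Grhl3, the zinc-finger repressors Ovol1 and Ovol2, and the ETS factors Elf3 and Ehf. They were found by symbol, and all 10 were among the 20325 genes listed for each library. RNA-seq was done on 2 populations sorted from reprogramming mouse neural stem cells, Nanog+E-cadherin+ (n = 3) and Nanog+E-cadherin- (n = 3). Both came from neural stem cells of postnatal day 4 mice on a mixed 129/Black 6 background. All donor mice carried 2 copies of a doxycycline-inducible Oct4, Sox2, c-Myc and Klf4 allele at the ColA1 locus and 1 copy of the rtTA activator at Rosa26. Cells of both groups received doxycycline until day 7 and were fixed, stained for Nanog and E-cadherin, and sorted. Uninduced neural stem cells and finished pluripotent cells were not analysed here, so no level can be placed between a start and an end point. Nothing in the labels ties the replicates to separate cultures or mice, and a p-value here therefore reflects only the spread among the sequenced samples, which may be technical.

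Epithelial cells are held together by E-cadherin (Cdh1) junctions, and a small set of regulators keeps that state. Grainyhead-like factors bind enhancers of junction genes, among them Cdh1, Ovol proteins repress mesenchymal regulators such as Zeb1, and the Esrp proteins direct the epithelial splice forms of genes such as Fgfr2, Cd44 and Ctnnd1. Reprogramming of fibroblasts to pluripotency is known to pass through a mesenchymal-to-epithelial transition. The comparison of the sorted populations asks which of these regulators differ between Nanog-positive cells sorted as positive and as negative for E-cadherin.

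Promoter windows of 300 bases, from 250 before to 50 after the start, were at hand for 5 of the 10 members (Rbm47, Grhl1, Grhl3, Ovol2 and Elf3), in 8 windows from RefSeq on GRCm38.p6. Those of Grhl3 and Elf3 are shown because these were the most abundant members and because only these windows held a searched motif. Capitals mark CACCTG, the reverse complement of the E-box CAGGTG that Zeb and Snail repressors bind.
Grhl3, chr4:135573583-135573882, minus strand: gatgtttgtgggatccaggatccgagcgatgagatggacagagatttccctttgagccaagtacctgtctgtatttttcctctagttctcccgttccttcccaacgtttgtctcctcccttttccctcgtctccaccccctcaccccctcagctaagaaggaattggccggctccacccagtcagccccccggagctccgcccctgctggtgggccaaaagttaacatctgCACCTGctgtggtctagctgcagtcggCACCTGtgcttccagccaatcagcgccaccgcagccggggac
Elf3, chr1:135258423-135258722, minus strand: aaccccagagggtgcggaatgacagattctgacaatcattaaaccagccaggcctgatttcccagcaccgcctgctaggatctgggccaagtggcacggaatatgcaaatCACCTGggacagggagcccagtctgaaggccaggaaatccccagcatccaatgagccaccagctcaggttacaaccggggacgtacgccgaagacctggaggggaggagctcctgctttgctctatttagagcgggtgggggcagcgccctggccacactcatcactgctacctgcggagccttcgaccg

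The Grhl3 window held 2 copies of the motif and the Elf3 window 1. The motif was present on either strand in 20.2% of all 32851 windows of that length. The grainyhead-like motif AACCGGTT, its own reverse complement, was in 0.146% of all windows, and the Ovol motif CCGTTA, searched on both strands, was in 2.76%. Neither was found in the 8 member windows. These matches describe letters and are not evidence of binding.

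Total expected counts (reads assigned to genes by RSEM) ran from 8851110 to 39630916 per library. The smallest library, Nanog+E-cadherin- replicate 3, also listed the fewest genes above 0 (13833, against 15527 to 16407). Cdh1 stood at 104 to 142.5 CPM (counts scaled to library size) in Nanog+E-cadherin+ libraries and at 15.4 to 20.2 CPM in the others, and Nanog overlapped between groups. The summed level of 7 simple-epithelium markers, Cdh1 included, was 184.6 to 206.5 TPM (a relative transcript abundance corrected for transcript length) against 72.3 to 102.9 TPM. The 5 keratinocyte markers summed to 5.27 to 7.47 against 1.74 to 8.89 TPM, and 6 neural stem cell markers to 106.6 to 497 against 125.7 to 664 TPM. The 5 fibroblast or mesenchyme markers summed to 1044 to 4286 against 1267 to 4815 TPM, the 5 neuron markers to 142.5 to 592 against 233 to 820 TPM and the 3 blood markers to 11.3 to 17.3 against 8.90 to 24.6 TPM, with Hbb-b1 at 0 throughout. Nanog+E-cadherin- replicates 2 and 3 stood apart in 1447 chemosensory receptor genes (symbols beginning Olfr, Vmn1r or Vmn2r). These summed to 1886 and 1215 CPM of library totals there, against 31.9 to 154.9 CPM in the other 4 libraries.

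For 2 members, Grhl2 and Esrp1, the lowest Nanog+E-cadherin+ library stood above the highest Nanog+E-cadherin- library. For 1 member, Ovol1, the order was the opposite, and the other 7 overlapped between the groups. Among the 13460 genes tested, 3.74% were higher and 3.25% lower in the same sense. At an adjusted p under 0.05, edgeR called no member, whether the quasi-likelihood model held the group alone or also the replicate number as a block. In these bulk samples a smaller number of cells expressing a gene and less RNA per cell cannot be told apart.

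**Figure D1:**
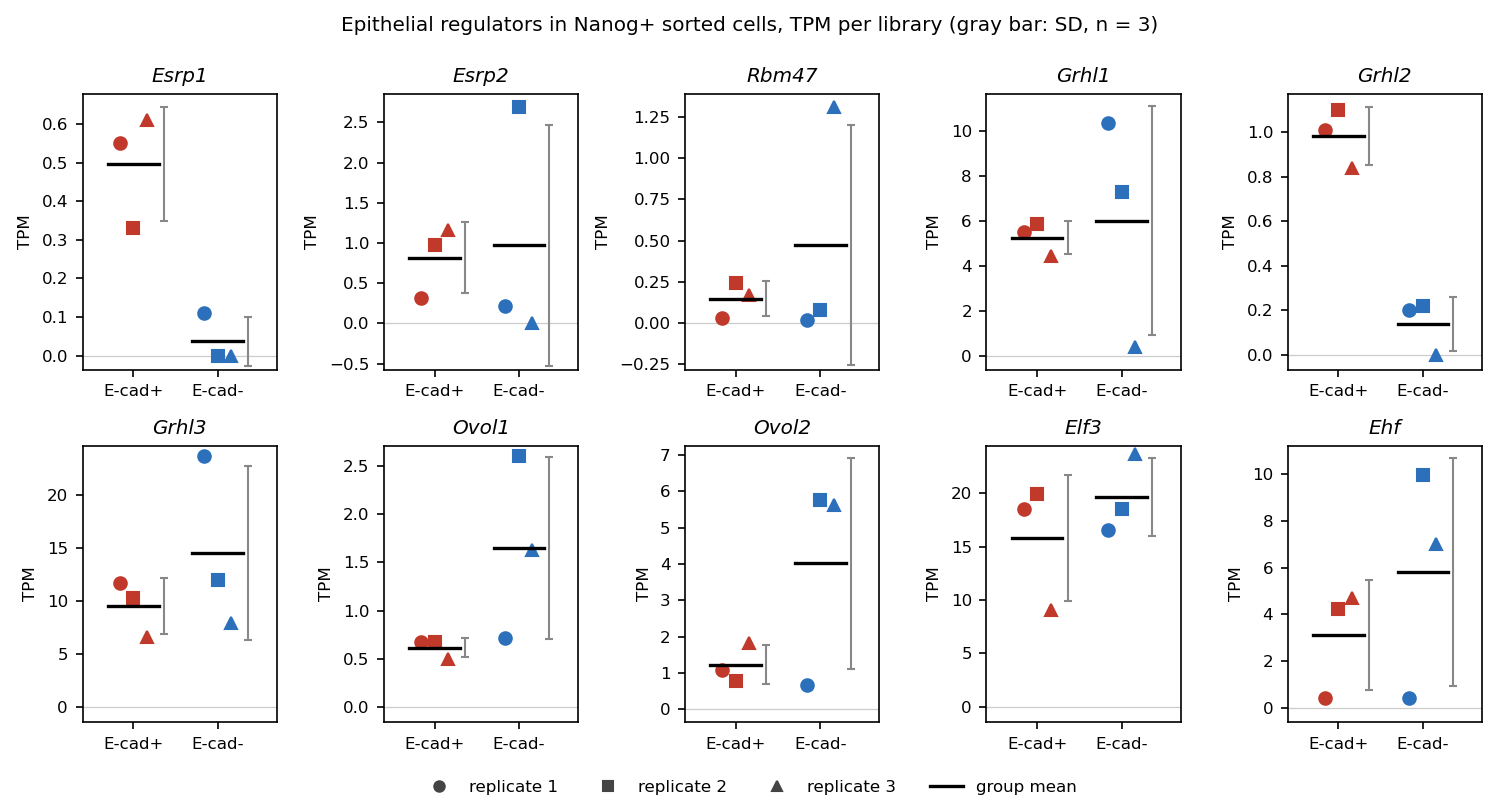
TPM of each of the 10 members (vertical axes, each on its own linear scale) in the 3 Nanog+E-cadherin+ (red) and 3 Nanog+E-cadherin- (blue) libraries; the symbol gives the replicate number, black lines are group means and gray bars the SD. Grhl2 and Esrp1, higher in Nanog+E-cadherin+, and Ovol1, lower there, do not overlap between groups. High values of Ovol2 and Ehf lie in Nanog+E-cadherin- replicates 2 and 3.

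The members differed widely in level. By mean TPM over 6 libraries Elf3 was first (17.7 ± 4.86 TPM, SD), followed by Grhl3 (12.1 ± 6.11), Grhl1 (5.65 ± 3.29), Ehf (4.46 ± 3.72), Ovol2 (2.63 ± 2.41) and Ovol1 (1.13 ± 0.825). Esrp2 (0.893 ± 0.988), Grhl2 (0.562 ± 0.476), Rbm47 (0.308 ± 0.498) and Esrp1 (0.267 ± 0.272) were lowest. The ranges of all 9 neighbouring pairs in this order overlapped. Within Nanog+E-cadherin+ libraries 7 of 9 neighbouring pairs overlapped; Grhl3 lay wholly above Grhl1, and Esrp1 wholly above Rbm47. Grhl2 ranked 6 in Nanog+E-cadherin+ and 9 in Nanog+E-cadherin- cells, and Esrp1 ranked 9 and 10. Elf3 had a higher mean TPM than 65.7% of all genes listed, and Esrp1 than 26.3%.

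Esrp1 and Esrp2 are paralogous RNA-binding proteins that promote epithelial exon choice. Esrp1 had 0.55, 0.33 and 0.61 TPM in replicates 1 to 3 of the Nanog+E-cadherin+ group, and 0.11, 0 and 0 TPM in the Nanog+E-cadherin- libraries in the same order. These rest on 30, 8 and 24.4 expected counts against 11, 0 and 0. A count of 0 allowed up to 0.277 and 0.339 CPM of library totals in those 2 libraries, taking 3 counts as the limit, which covers counting error only. The groups were separate, at levels near the limit of detection. The fitted log2 fold change of Esrp1 (Nanog+E-cadherin+ over Nanog+E-cadherin-) was 3.07 ± 1.39 (SE; edgeR adjusted p = 0.9999) with group only. With the block it was 3.73 ± 1.59 (edgeR adjusted p = 0.451). The fitted change was 1.88 ± 1.08 without Nanog+E-cadherin- replicates 2 and 3, where replicate 1 stands alone and is assumed to vary like the other group. It was 7.08 ± 1.98 without Nanog+E-cadherin- replicate 1, where the group is left at 0 counts, so that this value depends on the prior count and is no bound. Without Nanog+E-cadherin+ replicate 1 or 3, Esrp1 did not pass the filter.

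Esrp2 had 0.32, 0.97 and 1.16 TPM in Nanog+E-cadherin+ libraries and 0.22, 2.69 and 0 TPM in Nanog+E-cadherin- libraries. The highest and the lowest value were both in Nanog+E-cadherin- cells, so the groups overlapped. Its log2 fold change was -0.12 ± 1.41 (SE) with group only and 0.84 ± 1.52 with the block, a change of sign well inside the error. It was 2.23 ± 1.41 without Nanog+E-cadherin- replicate 2. Rbm47, an RNA-binding protein of epithelia related to the apobec cofactor A1cf, had 2 to 8 expected counts in 5 libraries and 26 in Nanog+E-cadherin- replicate 3. That library had 1.31 TPM and the others 0.02 to 0.24 TPM. Rbm47 did not pass the filter on low counts, and an exact two-sided permutation test of log2(CPM + 0.5) gave p = 0.9 (n = 3 per group; the smallest possible is 0.1).

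The grainyhead-like factors were expressed unequally, with Grhl3 and Grhl1 far above Grhl2. Grhl2, the member best known for maintaining Cdh1 and claudin expression, had 1.01, 1.1 and 0.84 TPM in Nanog+E-cadherin+ and 0.20, 0.22 and 0 TPM in Nanog+E-cadherin- replicates 1 to 3. The counts behind these were 70, 34 and 43 against 25, 6 and 0. The lowest Nanog+E-cadherin+ value was above the highest Nanog+E-cadherin- value, and mean CPM was 2.86 ± 0.886 against 0.407 ± 0.364 (SD, n = 3 each), a ratio of 7.02. For Cdh1, whose protein set the sort, the same ratio was 7.39. The log2 fold change of Grhl2 was 2.72 ± 1.14 (SE; edgeR adjusted p = 0.9999) with group only. With the block it was 3.07 ± 1.14 (edgeR adjusted p = 0.392). Over all fits run, the smallest adjusted p of Grhl2 was 0.128, from DESeq2's Wald test with the block. The exact two-sided permutation test on log2(CPM + 0.5) gave p = 0.1 for Grhl2, Esrp1 and Ovol1, the smallest that 3 against 3 allows. Any gene whose groups do not overlap gives this value, so it only restates their separation. Without Nanog+E-cadherin- replicates 2 and 3 the fitted change of Grhl2 was 2.01 ± 0.80, against replicate 1 alone. That library was already below all Nanog+E-cadherin+ libraries (0.703 against 2.15 to 3.85 CPM), so the sign was fixed beforehand. Grhl2 and Esrp1 reached the filter's level of 0.633 CPM, here of library totals, only in Nanog+E-cadherin+ libraries (3 of 3, against 0 of 3), so their passing the filter already required a difference.

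Grhl1, which acts on desmosomal cadherin genes, had 5.52, 5.86 and 4.43 TPM in Nanog+E-cadherin+ and 10.4, 7.32 and 0.41 TPM in Nanog+E-cadherin- replicates 1 to 3. Nanog+E-cadherin- replicate 3 held 6 expected counts of Grhl1, far below its group, and the other 2 libraries of that group were above all Nanog+E-cadherin+ libraries in TPM. The log2 fold change was -0.25 ± 0.97 (SE) with group only, 0.43 ± 0.72 with the block and -0.81 ± 0.45 without that replicate. Grhl3, a factor of epidermal barrier formation and neural tube closure, had 11.7, 10.3 and 6.63 TPM against 23.8, 12.0 and 7.94 TPM. It was lower in the Nanog+E-cadherin+ library in all 3 pairs of equal replicate number, by log2 ratios of -0.91, -0.22 and -0.04, and its log2 fold change was -0.61 ± 0.64 with group only and -0.41 ± 0.27 with the block (SE). Without Nanog+E-cadherin- replicate 1 the fitted change of Grhl3 was 0.33 ± 0.52.

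As a share of the summed TPM of the 3 grainyhead-like genes, Grhl2 made up 5.55%, 6.37% and 7.06% in Nanog+E-cadherin+ libraries and 0.583%, 1.13% and 0% in Nanog+E-cadherin- libraries. The groups did not overlap in this share. The 0% rests on 0 expected counts in the smallest library and is no upper bound. The summed TPM itself overlapped, at 18.2, 17.3 and 11.9 against 34.3, 19.5 and 8.35 TPM. Grhl3 was the largest share in all 6 libraries, at 59.9 ± 4.20% against 75.2 ± 17.6% (SD, n = 3 each).

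**Figure D2:**
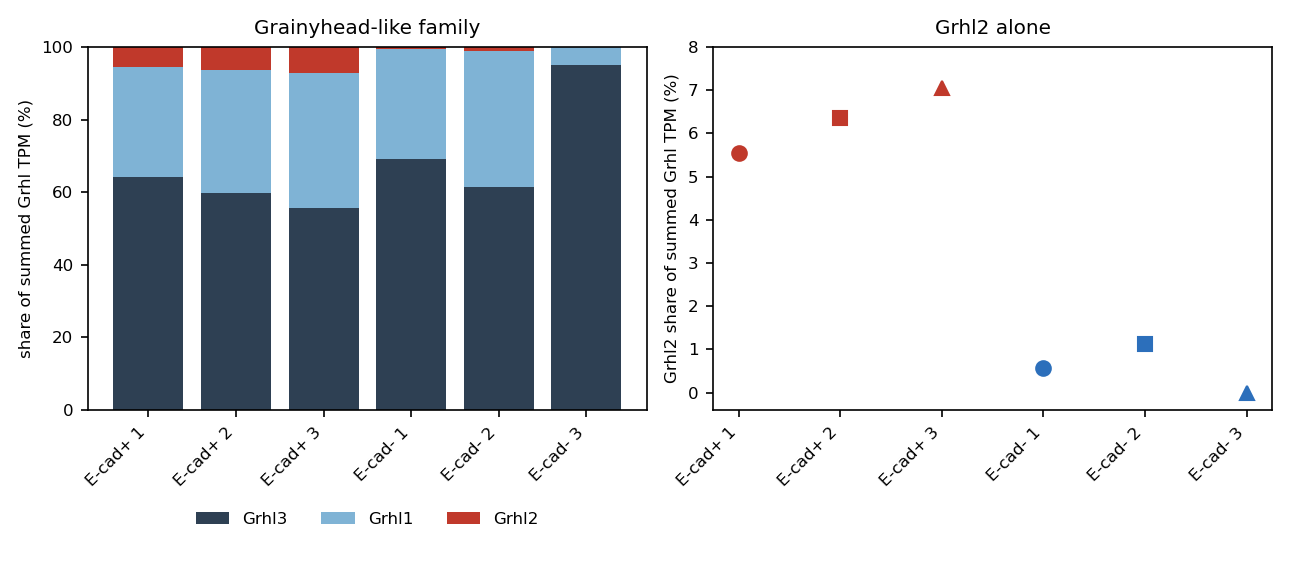
Left, the share of Grhl1, Grhl2 and Grhl3 in their summed TPM (percent, stacked bars) in each library, and right, the Grhl2 share alone on an enlarged axis; symbols give the replicate number. The measured Grhl2 share is 5.55% or more in each Nanog+E-cadherin+ library and 1.13% or less in each Nanog+E-cadherin- library, where the 0% of replicate 3 rests on 0 counts.

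Both Ovol factors were highest in Nanog+E-cadherin- replicates 2 and 3. Ovol1 had 0.67, 0.67 and 0.50 TPM in Nanog+E-cadherin+ and 0.72, 2.60 and 1.63 TPM in Nanog+E-cadherin- replicates 1 to 3. The groups were separate, but the replicate 1 libraries stood at 1.49 CPM each, with a log2 ratio of -0.003 between them. Ovol1 had a log2 fold change of -1.17 ± 0.78 (SE; edgeR adjusted p = 0.9999) under the group-only model and -1.14 ± 0.95 under the blocked one. Ovol2, which represses Zeb1 in epithelia, had 1.09, 0.78 and 1.82 TPM against 0.67, 5.77 and 5.62 TPM, on 7 to 38 counts per library. Its high values were in Nanog+E-cadherin- replicates 2 and 3, and replicate 1 of that group was the lowest of all 6 in TPM. RSEM's mean transcript length for Ovol2, which enters its TPM, ranged from 1213 to 1472 bases between libraries. The log2 fold change of Ovol2 was -1.29 ± 0.93 (SE) with group only and -1.03 ± 1.12 with the block.

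Elf3 and Ehf are ETS factors of simple and glandular epithelia. Elf3 had 18.5, 19.9 and 9.04 TPM in Nanog+E-cadherin+ and 16.6, 18.6 and 23.7 TPM in Nanog+E-cadherin- replicates 1 to 3. Apart from the low Nanog+E-cadherin+ replicate 3, its values lay close together, and the log2 fold change was -0.14 ± 0.43 with group only and -0.25 ± 0.32 with the block (SE). Ehf had 0.42, 4.25 and 4.68 TPM against 0.43, 9.96 and 7.00 TPM. Its level followed the replicate number, 0.42 and 0.43 TPM in the replicate 1 libraries and at least 4.25 TPM in the other 4. The log2 fold change of Ehf was -0.77 ± 1.01 with group only and -0.53 ± 0.40 with the block (SE). The 5 genes tested whose log2 CPM, centred on its mean, lay closest to that of Elf3 over the 6 libraries were Pilra, Qprt, Grasp, Pcyox1l and Vrk1, with root mean square differences of 0.16, 0.18, 0.18, 0.20 and 0.22.

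Ovol1, Ovol2 and Ehf were highest in Nanog+E-cadherin- replicates 2 and 3, the libraries with the highest chemosensory receptor sums, and Rbm47 was highest in replicate 3. Without these 2 libraries the fitted log2 changes, now against Nanog+E-cadherin- replicate 1 alone, were -0.51 ± 0.82 for Ovol1, 0.69 ± 0.97 for Ovol2, 2.35 ± 1.29 for Ehf and 2.48 ± 1.6 for Rbm47 (SE). For Ovol2 and Ehf the sign was then the opposite of that with all 6 libraries, where Rbm47 was not fitted. With replicate 1 alone in its group, that fit cannot tell group from replicate number. Ehf stood at 1.43 and 1.35 CPM in the 2 replicate 1 libraries, and at 8.77 and 10.6 CPM in Nanog+E-cadherin+ replicates 2 and 3. The part of the chemosensory signal in these results was not tested. Without the same libraries Grhl1 and Grhl3 had fitted changes of -1.25 ± 0.45 and -1.57 ± 0.55 (SE). No gene passed in that fit, and the adjusted p in edgeR was 0.989 for each member.

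**Figure D3:**
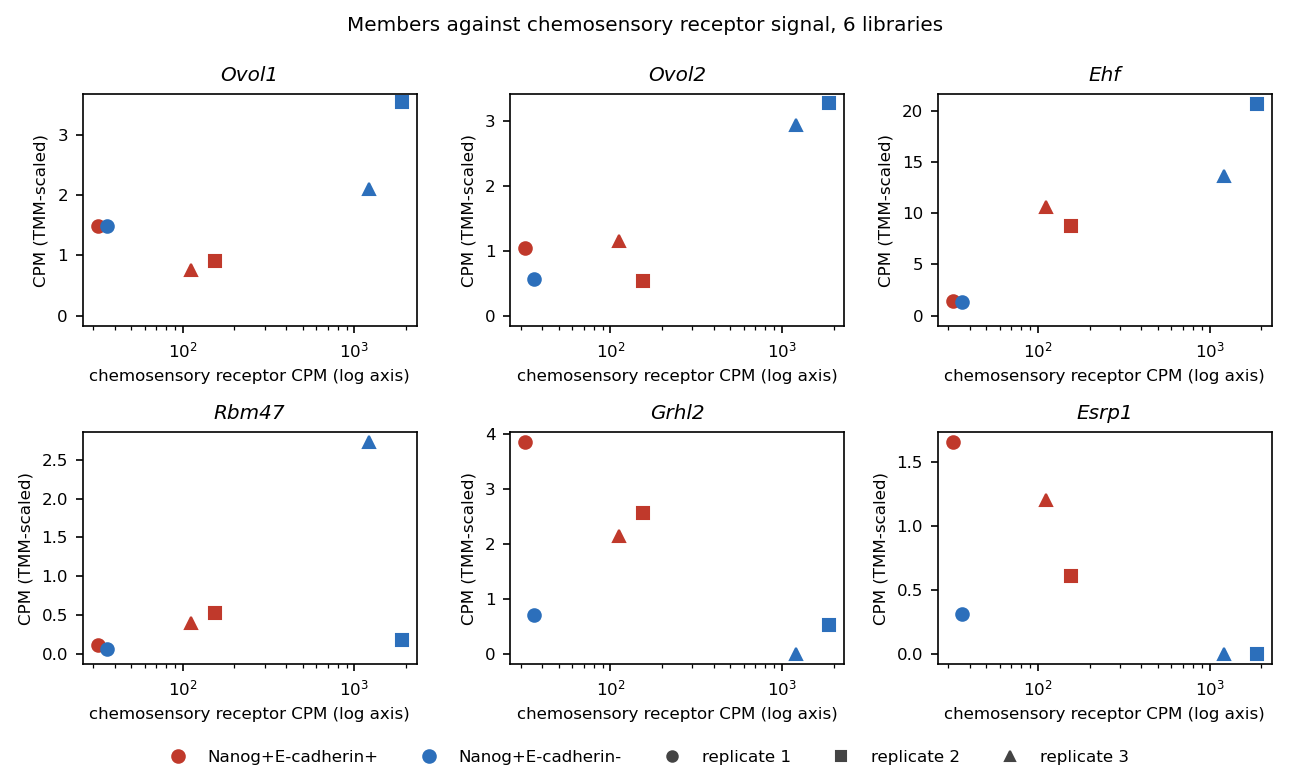
TMM-scaled CPM of 6 members (vertical axes, linear) against the summed CPM of 1447 chemosensory receptor genes (horizontal axes, log scale) in each library; red is Nanog+E-cadherin+, blue Nanog+E-cadherin-, and symbols give the replicate number. The 2 blue points at 1215 and 1886 CPM carry the highest values of Ovol1, Ovol2 and Ehf, while Grhl2 and Esrp1 are highest in red points at 31.9 to 154.9 CPM.

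Over the 9 members tested, 2 were fitted higher and 7 lower with group only, and 4 higher and 5 lower with the block. Their median log2 fold change was -0.25 in both fits, beside -0.01 and 0.02 over all genes tested. In edgeR's test 0 of 9 members passed after adjustment with group only, where 0% of all genes passed, and 0 of 9 with the block, where 0.215% passed higher and 0.0892% lower (29 and 12 genes). At an unadjusted p under 0.05, Grhl2 was past it with group only and Esrp1 and Grhl2 with the block, where 5.51% of all genes were past it in the higher direction. With group only that percent was 1.08%. In the lower direction 1.58% and 5.19% of all genes were past it, with group only and with the block. After adjustment 0 members passed in DESeq2's Wald test with group only (0.0966% of all genes) and with the block (2.26%), and in limma-voom with group only (0%) and with the block (1.96%). DESeq2 gave no adjusted p for 5 of the 9 with group only. Limma-voom with the block put Grhl3 lower and Esrp1 and Grhl2 higher at an unadjusted p under 0.05, beside 7.35% of all genes lower and 5.94% higher.

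**Figure D4:**
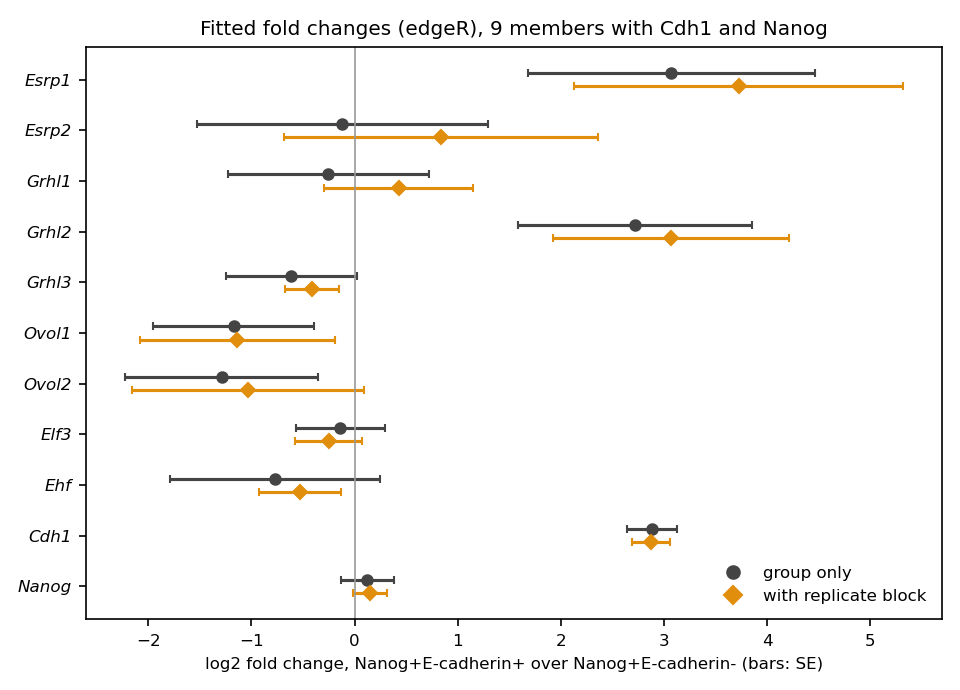
Fitted log2 fold change (Nanog+E-cadherin+ over Nanog+E-cadherin-, horizontal axis) with its SE for the 9 members tested and for Cdh1 and Nanog, with group only (gray circles) and with the replicate block (orange diamonds). Esrp1 at 3.07 and Grhl2 at 2.72 lie near Cdh1 at 2.89, with errors several times wider. The protein of Cdh1 set the sort, and Esrp1 and Grhl2 reached the filter's level only in Nanog+E-cadherin+ libraries, so nearness in size is description only.

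Within equal replicate numbers, Esrp1 had log2 ratios of CPM + 0.5 of 1.41, 1.14 and 1.77 and Grhl2 of 1.85, 1.59 and 2.41 in pairs 1 to 3. These were the 2 members above 0 in all 3 pairs, and Grhl3 and Ovol1 were below 0 in all 3. Of all genes tested, 18.9% were above 0 and 17.3% below 0 in all 3 pairs. Esrp2 ranged from -1.18 to 2.07, and Grhl1 from -0.78 to 2.90, the latter in the pair with few Grhl1 counts.

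**Figure D5:**
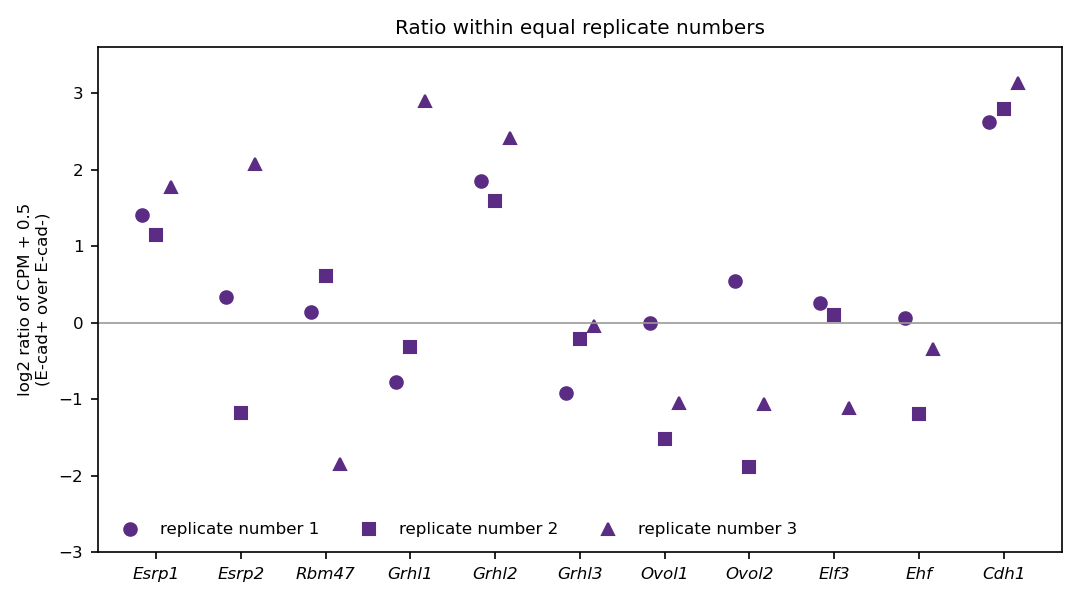
Log2 ratio of TMM-scaled CPM + 0.5, Nanog+E-cadherin+ over Nanog+E-cadherin- (vertical axis), within each of 3 replicate numbers (symbols) for the 10 members and Cdh1. Esrp1 and Grhl2 lie above 0 in all 3 pairs, Grhl3 and Ovol1 lie below 0 in all 3, and Grhl1, Esrp2 and Rbm47 scatter on both sides.

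Genes that grainyhead-like and Ovol factors act on in epithelia, or that mark the same program, numbered 24, of which 21 were tested. With group only 15 were fitted higher and 6 lower; the median log2 fold change was 0.24 (0.29 with the block). The groups did not overlap for 5 higher genes, Cdh1, Cldn4, Cldn6, Cldn7 and Ap1m2, and for 0 lower genes, beside 3.74% and 3.25% of all genes. The list holds Cdh1, whose protein set the sort. Ap1m2, an adaptor of basolateral sorting in epithelial cells, had a mean of 1.35 ± 0.785 against 0.0569 ± 0.0493 CPM (SD, n = 3 each) and a log2 fold change of 4.26 ± 1.22 (SE). Its Nanog+E-cadherin- values, at most 0.0865 CPM, were far below the filter's level of 0.633 CPM. Its passing the filter thus already required a difference. Cldn4, a tight junction claudin, had 24.4, 16.5 and 25.6 CPM against 13.6, 11.2 and 2.10 CPM, with a log2 fold change of 1.30 ± 0.63 (SE). Dsp, the desmosomal plaque protein, had a log2 fold change of -0.59 ± 0.74 under the group-only model and -0.46 ± 0.15 under the blocked one (SE), and of 0.32 without Nanog+E-cadherin- replicate 1. After adjustment edgeR's test passed 0 of the 21 with group only, where 4 higher and 0 lower had an unadjusted p under 0.05 (1.08% and 1.58% of all genes). With the block it passed Cdh1 alone (adjusted p = 0.00177), with 8 higher and 2 lower at an unadjusted p under 0.05 (5.51% and 5.19% of all genes). Among the named genes, Cldn4 also passed with the block when both replicates numbered 2 were left out (edgeR adjusted p = 0.00224), and Dsp when those numbered 3 were (adjusted p = 0.0443). Those fits rest on fewer libraries, yet more genes passed in them. Of all genes, 95 higher and 45 lower passed in the former and 247 and 202 in the latter. With the block and all libraries it was 29 and 12. DESeq2 passed Cdh1 with and without the block, and limma-voom with the block only. With group only, DESeq2 gave no adjusted p for 6 of the 21.

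Of 10 genes whose transcripts the Esrp proteins splice, all were tested, 4 were fitted higher and 6 lower, and the median log2 fold change was -0.12. The files give totals per gene, so splice forms were not measured. Fgfr2, whose epithelial and mesenchymal receptor forms differ by 1 alternative exon, had a mean of 42.3 ± 8.64 against 62.9 ± 16.7 CPM (SD, n = 3 each) and a log2 fold change of -0.57 ± 0.29 under the group-only model and -0.56 ± 0.17 under the blocked one (SE; edgeR adjusted p = 0.301). Arhgef11 was lower in CPM in every Nanog+E-cadherin+ library, as were 3.25% of all genes, with a log2 fold change of -0.40 ± 0.21 (SE). In TPM its groups overlapped, at 13.7 to 31.18 against 22.42 to 39.44. Slk had a log2 fold change of -0.50 ± 0.30 and Ctnnd1, the p120 catenin that stabilises E-cadherin, one of 0.19 ± 0.28 (SE). With all 6 libraries, none passed after adjustment in edgeR, DESeq2 or limma-voom with or without the block. At an unadjusted p under 0.05 there were 0 in these tests with group only and 2 lower, Fgfr2 and Arhgef11, with the block. Of all genes, 5.19% were lower at that level in edgeR with the block, and 1.58% with group only.

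Other splicing regulators numbered 21, of which 20 were tested, 8 fitted higher and 12 lower; the median log2 fold change was -0.11. Srrm4, a neuronal microexon regulator, had 4.79, 7.71 and 3.8 CPM against 16.1, 21.5 and 5.56 CPM and a log2 fold change of -1.41 ± 0.58 (SE). Nova2, a neuronal splicing factor, stood at 68.3 ± 4.62 against 95.3 ± 7.91 CPM (SD, n = 3 each), with no overlap in CPM. Its log2 fold change was -0.48 ± 0.19 (SE). In TPM its groups overlapped, at 10.47 to 18.45 against 15.62 to 25.97. Ptbp1, which represses neuronal exons, had a log2 fold change of 0.25 ± 0.27 and Hnrnph1 one of -0.31 ± 0.24 (SE). The groups did not overlap in CPM for 3 lower genes, Hnrnph1, Nova1 and Nova2, and for 0 higher genes, beside 3.25% and 3.74% of all genes. In TPM the groups overlapped for Hnrnph1 too, at 195.83 to 303.48 against 217.35 to 371.92. With all 6 libraries, none of the 20 passed after adjustment in edgeR, DESeq2 or limma-voom with or without the block. DESeq2 with group only gave no adjusted p for 1 of the 20. Srrm4 passed with the block when both replicates numbered 3 were left out (edgeR adjusted p = 0.00844). That fit rests on fewer libraries, and 247 genes passed higher and 202 lower in it. In edgeR's test 0 higher and 2 lower, Srrm4 and Nova2, had an unadjusted p under 0.05, with group only and with the block. Of all genes, 1.58% were lower at that level with group only and 5.19% with the block.

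Repressors of E-cadherin and related factors numbered 9, of which 7 were tested. Their median log2 fold change was -0.01, with 2 fitted higher and 5 lower. Zeb2, a zinc-finger repressor of Cdh1, had 17.5, 30.5 and 15.9 CPM against 27.4, 35.8 and 36.7 CPM, with a log2 fold change of -0.65 ± 0.33 under the group-only model and -0.69 ± 0.25 under the blocked one (SE; edgeR adjusted p = 0.370). Zeb1 had a log2 fold change of -0.32 ± 0.39, Twist1 of 0.56 ± 0.53 and Snai2 of -1.55 ± 1.31 (SE). None passed after adjustment in the 6 tests, but DESeq2 with group only gave no adjusted p for 2 of the 7. Zeb2 alone had an unadjusted p under 0.05, in the tests with the block. In edgeR with the block 5.19% of all genes were lower at that level. Snai2 was at 2.59 and 2.83 CPM in replicates 2 and 3 of the Nanog+E-cadherin- group and at 0.165 to 1.44 CPM elsewhere.

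Among paralogs and relatives of the members, 8 of 13 were tested, 4 fitted higher and 4 lower; the median log2 fold change was -0.06. The ETS factor Elf4 had a log2 fold change of 0.81 ± 0.47, the grainyhead relative Tfcp2 (Tcfcp2 in the files) -0.33 ± 0.24, the Rbm47 relative Hnrnpr -0.28 ± 0.25 and Elf2 -0.21 ± 0.19 (SE). Of 16 other epithelial transcription factors 7 were tested, 5 fitted higher and 2 lower; the median log2 fold change was 0.12. Tfap2c (Tcfap2c in the files) had -0.43 ± 1.05, Tfap2a (Tcfap2a) 0.52 ± 0.90 and Foxa1 1.01 ± 0.95 (SE). In both lists 0 genes passed after adjustment, and 0 had an unadjusted p under 0.05 in edgeR's test with group only or with the block. DESeq2 with group only gave no adjusted p for 4 of the 7 other epithelial factors tested.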

How the data were processed

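Reads were handled with Bowtie and RSEM (version 1.2.4) against mm9, per the submitters' processing notes. Their settings and any use of strand were not given in the sources used here. Overlapping antisense genes may thus share reads. Per the file headers, the authors deposited expected counts and TPM values for each gene, 1 library per file. Libraries were made from decrosslinked RNA of fixed cells with a TruSeq RNA kit, per the labels' protocols.

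Expected counts deposited by the authors were rounded and tested with edgeR 4.0.16 in R 4.3.3 (TMM, filterByExpr with minimum count 10 and total 15, quasi-likelihood, Benjamini-Hochberg over 13460 genes), with group only. The SE of an edgeR log2 fold change is its absolute value over the square root of the quasi-likelihood F. It is approximate, most of all where libraries hold 0 counts. CPM values are TMM-scaled unless said to be of library totals. At 8851110 to 39630916 counts per library, low members rest on few reads. Levels of different genes were compared as the authors' deposited TPM. Alternatives used the replicate block, DESeq2 1.42.0, limma 3.58.1, log2(TPM + 1) and log2(TPM + 0.1), other scalings, no filter, and left-out libraries. The steps were tested on simulated data.

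Replicate numbers pair the samples by their values: deviations from group means correlated at 0.75, 0.41 and 0.48 for equal numbers (limit 0.1) and between -0.62 and 0.12 otherwise, over 13460 genes. The labels do not state what a number marks.

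The members and lists were chosen with earlier results of these data known. Named genes are all members, Nanog and Cdh1, for each of 6 lists the 4 tested genes of smallest p with the block, and the 5 genes most like the member of highest mean TPM; Cldn6, Cldn7 and other genes given as counts of 5 or fewer were named after their values were seen. A gene that this rule names is not reported here. Of the lists' symbols, 5 were matched through older names in RefSeq's gene table, and 1 was not found and not analysed here. Promoter sequences are RefSeq's, on GRCm38.p6, not the build of the files, and no coordinate was carried between builds.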

Additional observations from a re-analysis of the deposited data

How the results depend on the processing

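No tested member passed an adjusted p of 0.05 under any alternative run; of 172 member values under alternatives, 148 kept their direction, and the smallest adjusted p was 0.128 (Grhl2, DESeq2 with the replicate block). Grhl2, Esrp1 and Ovol1 kept their direction in every fit that gave them a value. Their groups did not overlap, so fits to the same libraries, or to fewer of them, could hardly reverse it. Genes passing higher and lower, 0 and 0 with group only, were 29 and 12 with the replicate block, 185 and 119 with DESeq2 and the block, 132 and 132 with limma-voom and the block (an alternative chosen after seeing the data), 11 and 2 with DESeq2 alone, and 1 and 0 with no filter. With the block and without both replicates numbered 1, 2 or 3, they were 66 and 83, 95 and 45, and 247 and 202. Leaving out 1 library gave 0 in each case. The pairing by replicate number, used as a block, changed no member's call. Of the other named genes, Cdh1 passed with the block in each such fit; Cldn4 passed without replicates numbered 2, and Dsp and Srrm4 without those numbered 3. The members' median log2 fold change of -0.25 was -0.57 with the block and without both replicates numbered 3, and ranged from -0.67 to -0.0090 when 1 library was left out. These medians are over the members each fit kept, 8 to 10; Esrp1 fell below the filter without Nanog+E-cadherin+ replicate 1 or 3. Without both Nanog+E-cadherin- replicates 2 and 3, chosen after seeing the data, the median was 1.07 over 10 members, Rbm47 included, and 0.69 over the 9 tested with all libraries. That fit leaves replicate 1 alone in its group, so group and replicate number cannot be told apart in it.

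Reversed signs, none past the threshold, were as follows. Esrp2 (-0.12) was 0.84 with the block, 1.26 and 2.41 with it and without replicates numbered 1 and 2, 1.09 with DESeq2 and the block, 1.30 with limma-voom, 0.17 with limma-voom and the block, 0.11 and 0.89 on log2(TPM + 1) and log2(TPM + 0.1), 1.44 without Nanog+E-cadherin- replicates 2 and 3, and -0.67 to 2.23 with 1 library left out. Grhl1 (-0.25) was 0.43 with the block, 1.46 and 1.0 with it and without replicates numbered 1 and 2, 0.55 with DESeq2 and the block, 0.29 and 0.65 on the TPM scales, and -0.81 to 0.77 with 1 library left out. With 1 library left out Grhl3 ranged from -1.10 to 0.33, Elf3 from -0.57 to 0.22, Dsp from -1.22 to 0.32, Tcfap2c from -1.32 to 0.14 and Nanog from -0.053 to 0.34. Elf3 was 0.19 and Hnrnpr 0.053 with the block and without replicates numbered 3, and Ehf was 0.37 with limma-voom. Without Nanog+E-cadherin- replicates 2 and 3, Ovol2 was 0.69, Ehf 2.35, Ptbp1 -0.055, Zeb1 0.48, Snai2 1.83 and Nanog -0.22. Group and replicate number cannot be told apart in that fit. The cause of the reversed signs was not tested. Of the 5 genes most like Elf3, 4 remained with library totals and 3 on the TPM scale. Depth limits 6 members, Rbm47, Esrp1, Esrp2, Ovol2, Ovol1 and Grhl2, at 47 to 178 counts over all libraries, most.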
